A study of Homo sapiens with 8 samples.

Results

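Stress granules are clusters of stalled messenger RNAs and RNA-binding proteins that form in the cytoplasm when cells under stress stop starting translation. G3BP1 and G3BP2 are the paralogous RNA-binding proteins around which the granules condense. CAPRIN1 and UBAP2L bind them and promote condensation, USP10 binds them and opposes it, and TIA1, TIAL1, ATXN2, FMRP and PABPC1 bring further RNA and protein contacts. Translation usually stops through phosphorylation of the initiation factor eIF2, and released messages can pass to processing bodies, where messages are stored, decapped and degraded.

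Messenger RNA of 10 stress granule genes (G3BP1, G3BP2, CAPRIN1, USP10, UBAP2L, ATXN2, FMR1, TIA1, TIAL1 and PABPC1) was followed in human melanoma cells after knockdown aimed at EP300, which encodes the acetyltransferase p300. The genes were found on the arrays by their Entrez number. Of these, 9 of 10 had a feature among the 23786 measured, and PABPC1 is not analysed here. The set was chosen by the changes with shp300 in both lines, because G3BP2 was lower in both and most of the others were not, so the changes of these genes are given as a description, with no p-value. Their calls in a fit of all features are only counted, beside the share of all features called. How many of all features had groups that did not overlap was not counted. The order of the arrays of a member is therefore also only a description.

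The study asked how melanoma lines respond to loss of p300. The 8 arrays form 4 groups of 2, from the established human melanoma lines WM983B and SK-Mel5. In each line, the scrambled group carried a pLKO1 lentivirus with a scrambled control shRNA and the shp300 group a pLKO1 lentivirus with an shRNA against p300. Cells of all groups were transduced in the presence of polybrene and selected in puromycin at 1.5 µg/mL from 48 h after transduction. Each line is a single established line, and the labels describe a single shp300 shRNA against a single scrambled one. Nothing in the labels tells if both arrays of a group stem from different cultures. The p-values therefore reflect only array-to-array spread, which may be technical.

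The deposited values are log2 RMA expression values, which are background-corrected, normalized and summarised probe intensities. Replicate arrays correlated at r = 0.992 to 0.995 over all features. The array medians were 4.26 to 4.28 in WM983B and 2.96 to 3.01 in SK-Mel5, so levels were not compared between the lines. The precision is limited by 2 arrays per group. All 7 melanocyte markers lay above the median feature in every group. None of 5 keratinocyte, 5 leukocyte and 4 endothelial markers did so, and 3 of 6 fibroblast markers did so in every group. EP300 itself measured 7.10 and 7.22 on the WM983B scrambled arrays against 6.92 and 7.26 on those labelled shp300, which changes it by -0.07 (SE 0.155, limma adjusted p = 0.832). In SK-Mel5 it fell from 7.19 and 6.90 to 5.97 and 6.10, a change of -1.01 (limma adjusted p = 0.00377). The EP300 RNA therefore does not check the WM983B label, and WM983B results are those of the arrays labelled shp300.

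The sequences before the starts of G3BP2, G3BP1 and TIA1 are shown because these genes include both paralogs and the 2 genes that were lower in both lines. G3BP2 lies on the minus strand of chromosome 4 at 75642786 to 75724437 (GRCh38.p14) and has 5 RefSeq starts. Its outermost start faces USO1, a vesicle tethering factor gene on the plus strand, across 139 bases with a GC content of 69.8%. The other G3BP2 starts lie inside the gene, at 75672701 to 75673595. The array values do not tell which start was in use. The whole interval, and the 250 bases before an inner G3BP2 start, before the G3BP1 start and before a TIA1 start, were taken from RefSeq and run 5′ to 3′ on the strand of the named gene. Promoters were found for 8 of the 10 genes. Capitals mark matches, on either strand, to the motifs spelled out after the sequences.
G3BP2 to USO1, chr4:75724438-75724576, minus strand: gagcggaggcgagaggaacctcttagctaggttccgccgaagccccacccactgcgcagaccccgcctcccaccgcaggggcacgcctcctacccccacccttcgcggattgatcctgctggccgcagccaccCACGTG
G3BP2 inner start, chr4:75673596-75673845, minus strand: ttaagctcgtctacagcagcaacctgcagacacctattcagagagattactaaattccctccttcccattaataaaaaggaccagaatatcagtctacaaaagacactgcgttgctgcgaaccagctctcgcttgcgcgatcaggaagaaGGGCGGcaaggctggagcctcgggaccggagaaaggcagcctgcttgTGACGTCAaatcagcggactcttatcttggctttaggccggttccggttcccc
G3BP1, chr5:151771704-151771953, plus strand: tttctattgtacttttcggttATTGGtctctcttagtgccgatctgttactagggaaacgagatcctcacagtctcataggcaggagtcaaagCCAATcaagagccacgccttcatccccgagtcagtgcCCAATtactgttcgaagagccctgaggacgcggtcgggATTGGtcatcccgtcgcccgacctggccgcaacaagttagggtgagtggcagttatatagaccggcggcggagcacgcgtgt
TIA1, chr2:70248794-70249043, minus strand: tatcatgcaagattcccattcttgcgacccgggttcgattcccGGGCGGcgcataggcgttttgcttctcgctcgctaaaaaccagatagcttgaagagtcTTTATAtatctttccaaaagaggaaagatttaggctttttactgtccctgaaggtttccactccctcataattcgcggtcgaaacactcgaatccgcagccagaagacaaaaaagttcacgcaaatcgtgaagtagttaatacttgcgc

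The interval between G3BP2 and USO1 held 1 E-box, CACGTG, directly before the outermost G3BP2 start. MITF and other basic helix-loop-helix leucine zipper factors read these letters, which were in 6.34% of 35116 promoter windows of 250 bases. The E-box was absent from the 250 bases before each of the other G3BP2 starts, and it was not particular to G3BP2 among the members. UBAP2L (changes of 0.17 in WM983B and 0.19 in SK-Mel5) had 2 before a start, and FMR1 (0.11 and -0.15) had 1. Before the inner G3BP2 start shown stood 1 cyclic AMP response element, TGACGTCA, present in 1.65% of the windows. The same stretch held 1 GC box, GGGCGG, present in 42.6%. No other G3BP2 start had the cyclic AMP response element in its 250 bases. The G3BP1 sequence shared none of these and held 4 matches to the CCAAT box, found in 32.0% of the windows. G3BP2 also had 1 CCAAT box, in the overlapping 250 bases before its inner starts at 75672894 and 75672701, which are not shown. The TIA1 sequence held 1 GC box and 1 TATA box, TATAAA, the latter present in 10.7%. The M-box core CATGTG was in 9.42% of the windows and in none of these 4 stretches. The AP-1 motif TGANTCA was in 6.57% of the windows, the ETS motif CCGGAAG in 8.52% and the NRF1 motif in 1.03%, and none of them was in these 4 stretches. The percentages are for 250 bases and the interval before the outermost G3BP2 start has 139. The full 250 bases before that start, which run into USO1, held 1 NRF1 match, and so did those before FMR1. A match describes the letters only.

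G3BP2 was the member with the greatest change in both lines. It measured 9.73 and 9.72 on the WM983B scrambled arrays and 7.32 and 7.56 on the arrays labelled shp300. In SK-Mel5 it measured 10.14 and 10.07 with scrambled and 7.35 and 7.36 with shp300. Both shp300 arrays lay more than 2 log2 units below both scrambled arrays in each line, and the groups did not overlap. The group means in WM983B were 9.73 ± 0.00487 and 7.44 ± 0.172 (SD, n = 2), and the change was -2.29 (SE 0.117), or 4.88-fold lower. In SK-Mel5 the means were 10.11 ± 0.0489 and 7.35 ± 0.00502 (SD, n = 2), and the change was -2.75 (SE 0.117), or 6.74-fold lower. Ranked among all features of an array, G3BP2 stood at percentiles 97.5 to 97.6 with scrambled and 81.7 to 84.1 on the arrays labelled shp300 in WM983B. In SK-Mel5 it stood at 99.5 to 99.6 and 91.8 to 92.0. Its RNA thus still ranked high among the features of the shp300 arrays in both lines. The change in WM983B minus that in SK-Mel5 was 0.47 (SE 0.166). In RNA from bulk cells, fewer cells carrying a message and less message per cell cannot be told apart.

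Its paralog G3BP1, the better-known granule scaffold, hardly moved. G3BP1 measured 9.68 and 9.61 with scrambled and 9.44 and 9.58 with shp300 in WM983B. In SK-Mel5 it measured 8.77 and 8.62, then 8.80 and 8.92. The shp300 arrays lay below the scrambled ones in WM983B and above them in SK-Mel5, by narrow gaps. The changes were -0.14 and 0.17 (SE 0.116 each), and their difference was -0.30 (SE 0.165).

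**Figure D1:**
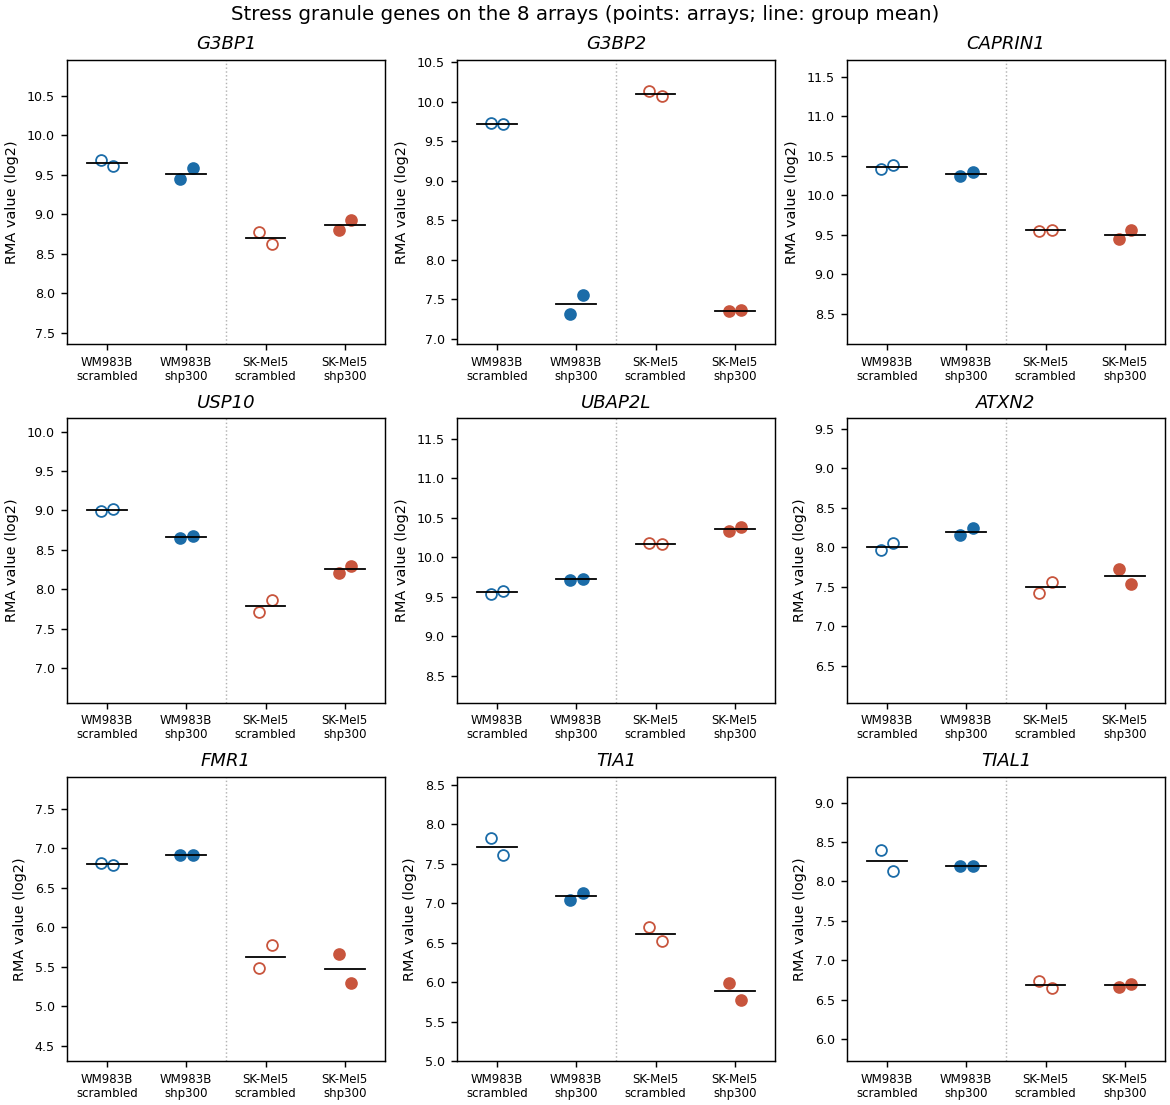
Deposited log2 RMA value of each of the 9 measured stress granule genes (y axes, each spanning the same number of log2 units) on the 8 arrays, by line and shRNA (x axis). Open points are scrambled arrays, filled points shp300 arrays, and short lines group means of 2 arrays. G3BP2 drops by the greatest distance in both lines, TIA1 is lower in both, and USP10 moves in opposite directions.

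Among the direct partners of the G3BP proteins, CAPRIN1 was nearly level. CAPRIN1, which competes with USP10 for their shared binding surface, measured 10.33 and 10.38 against 10.24 and 10.29 in WM983B, and 9.55 and 9.56 against 9.44 and 9.56 in SK-Mel5. Its changes were -0.09 and -0.05 (SE 0.104 each), and the SK-Mel5 value was 0.01 without shp300 replicate 1. UBAP2L, which promotes granule assembly together with the G3BP proteins, measured 9.54 and 9.58 against 9.72 and 9.73 in WM983B. In SK-Mel5 UBAP2L measured 10.18 and 10.17 against 10.34 and 10.38. It was higher with shp300 on every array of both lines, with changes of 0.17 and 0.19 (SE 0.0996 each). That is opposite in direction to G3BP2 and much smaller.

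USP10, a deubiquitinase that holds G3BP proteins in their uncondensed state, moved in opposite directions. In WM983B it measured 8.99 and 9.02 with scrambled and 8.65 and 8.68 with shp300. In SK-Mel5 the values were 7.71 and 7.86 with scrambled and 8.21 and 8.30 with shp300. The groups did not overlap in either line, and the gaps exceeded the distance between the arrays of a group. The share of all features with such gaps was not counted, so nothing is read from them. The changes were -0.35 and 0.47 (SE 0.108 each), and their difference was -0.82 (SE 0.153).

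ATXN2, which binds poly(A)-binding protein and AU-rich messages, measured 7.96 and 8.05 against 8.15 and 8.24 in WM983B and 7.42 and 7.56 against 7.73 and 7.54 in SK-Mel5. Its changes were 0.19 and 0.15 (SE 0.119 each). The groups were apart in WM983B and overlapped in SK-Mel5. FMR1, which encodes the translational repressor FMRP, measured 6.81 and 6.79 against 6.91 and 6.92 in WM983B and 5.48 and 5.77 against 5.66 and 5.29 in SK-Mel5. Its changes were 0.11 and -0.15 (SE 0.154 each). In SK-Mel5 the groups overlapped, and without shp300 replicate 2 the change was 0.03.

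TIA1 was the only other measured member with both shp300 arrays below both scrambled arrays in each line. The share of all features with this order was not counted, and the members were chosen on these changes, so nothing is read from it. TIA1 binds U-rich RNA, aggregates through a prion-like domain and also regulates splicing. It measured 7.82 and 7.61 with scrambled and 7.04 and 7.13 with shp300 in WM983B, and 6.70 and 6.52 against 5.99 and 5.78 in SK-Mel5. The changes were -0.63 (1.55-fold lower) and -0.72 (1.65-fold lower), with an SE of 0.134 each and a difference of 0.09 between the lines. Its paralog TIAL1 (TIAR), which shares the RNA-binding and prion-like architecture, measured 8.40 and 8.13 against 8.20 and 8.20 in WM983B, and 6.74 and 6.65 against 6.67 and 6.70 in SK-Mel5. The TIAL1 groups overlapped in both lines, with changes of -0.07 and -0.01 (SE 0.122 each). The WM983B value was 0.07 without scrambled replicate 1, and the SK-Mel5 value changed sign to 0.01 when all arrays were quantile-normalized together. In both paralog pairs, one gene was lower in both lines and the other stayed within 0.17 log2 units of its scrambled mean. The set was chosen on such a contrast, so this describes the chosen genes and nothing is read from it about paralogs.

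**Figure D2:**
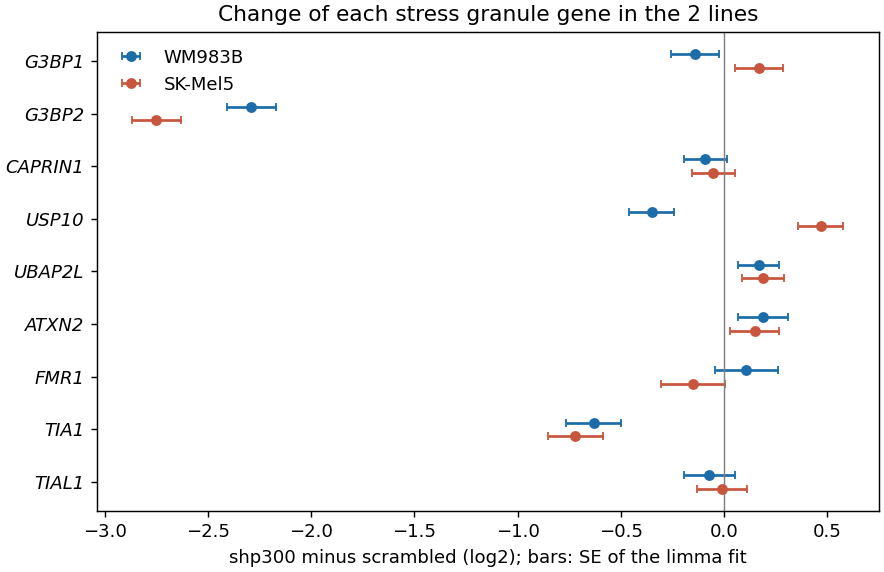
Change with shp300 (x axis, shp300 minus scrambled, log2) of each of the 9 measured stress granule genes (y axis) in WM983B and SK-Mel5. Points are differences of group means of 2 arrays and bars the SE of the limma fit. G3BP2 stands at -2.29 and -2.75, TIA1 at -0.63 and -0.72, and all others between -0.35 and 0.47.

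The limma fit over all 23786 features gives the scale of these values. At an adjusted p under 0.05, 0 of 9 members were called higher and 2 of 9 lower in WM983B (G3BP2 and TIA1), where 10.9% of all features were called higher and 11.6% lower. In SK-Mel5, 1 of 9 was called higher (USP10) and 2 of 9 lower (G3BP2 and TIA1), against 7.57% and 8.8% of all features. For the difference between the lines, 0 of 9 were called with a higher change in WM983B and 1 of 9 with a lower one (USP10), against 5.0% and 4.46% of all features. The set was selected on these contrasts, so nothing is read from these counts or from the calls behind them. The median change over the 9 members was -0.09 in WM983B and -0.01 in SK-Mel5, where all features had medians of 0.022 and 0.012. The WM983B count of 2 became 1 without its scrambled replicate 1 or shp300 replicate 1. The SK-Mel5 count of 3 became 1 without its scrambled replicate 1 or shp300 replicate 2. The USP10 call in SK-Mel5 was lost without any one array of that line, and with the arrays of that line alone.

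A chosen list of other stress granule proteins that were not members, 38 of 40 of them measured, moved in both directions. In WM983B 7 of 38 rose and 3 fell, where 10.9% and 11.6% of all features did, with a median change of 0.13. In SK-Mel5 9 rose and 4 fell, against 7.57% and 8.8% of all features, with a median of 0.09. IGF2BP3, a fetal messenger RNA-binding protein that stabilises its targets, rose in WM983B from 7.77 and 7.76 to 8.66 and 8.53. Its change was 0.83 (SE 0.128, limma adjusted p = 0.00279), a call kept in every setting, and it measured 0.43 (limma adjusted p = 0.0601) in SK-Mel5. STAU1, a double-stranded RNA-binding protein, rose in SK-Mel5 from 6.65 and 6.57 to 7.40 and 7.41, a change of 0.79 (limma adjusted p = 0.00303), also a call kept in every setting. In WM983B STAU1 changed by 0.39 (limma adjusted p = 0.0454), a call lost without any one of the 8 arrays (0.0592 to 0.239). The other named genes of the list that rose did so with less stable calls. IGF2BP2 rose by 0.78 in WM983B (limma adjusted p = 0.00674, 0.0519 without WM983B scrambled replicate 1). IGF2BP2 also rose by 0.66 in SK-Mel5 (limma adjusted p = 0.019), but not without SK-Mel5 scrambled replicate 2 (0.106), shp300 replicate 1 (0.0808) or shp300 replicate 2 (0.0562). IGF2BP1 rose by 0.64 in WM983B from a dim 2.45 and 2.31 (limma adjusted p = 0.00917, 0.0695 without scrambled replicate 2 and 0.0536 without shp300 replicate 2). Its change of 0.46 in SK-Mel5 (limma adjusted p = 0.047) missed the threshold without any one SK-Mel5 array (0.117 to 0.193) or either WM983B scrambled array (0.0726 each).

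In SK-Mel5, LARP1, which represses messages of the translation machinery, rose by 0.65 (limma adjusted p = 0.00879, 0.0579 without SK-Mel5 scrambled replicate 2), while in WM983B it measured -0.13. The LARP1 difference of -0.78 passed the test (limma adjusted p = 0.0289) but missed it when any one array other than WM983B scrambled replicate 1 was left out, at 0.0620 to 0.0997. It was the 1 gene of the list called for the difference, and 0 were called in the other direction. At an unadjusted limma p under 0.05 the list had 3 higher and 4 lower in WM983B. How many of all features reached that unadjusted p was not counted. Of all features, 5.0% were called with a higher change in WM983B and 4.46% with a lower one. CELF1, a regulator of splicing and decay, rose by 0.61 in SK-Mel5 (limma adjusted p = 0.00858, 0.0607 without SK-Mel5 scrambled replicate 1). PRRC2C rose by 0.61 in SK-Mel5 (limma adjusted p = 0.00926, 0.0553 and 0.0511 without SK-Mel5 scrambled replicate 1 and 2). PRRC2C also rose by 0.49 in WM983B (limma adjusted p = 0.0177), but not without WM983B scrambled replicate 1 (0.0899) or 2 (0.0802) or shp300 replicate 2 (0.0934). The WM983B count of 10 called genes became 3, 3, 6 and 4 without scrambled replicates 1 and 2 and shp300 replicates 1 and 2 of that line. The SK-Mel5 count of 13 became 4, 2, 7 and 5 without the same arrays of SK-Mel5. It was 4 with the SK-Mel5 arrays alone.

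The genes that set the eIF2 switch upstream of granule formation included 2 that moved in opposite directions in the lines. Of 16 measured kinases, phosphatase adaptors and subunits, 4 rose and 3 fell in each line, with medians of 0.03 and 0.02. Of all features, 10.9% rose and 11.6% fell in WM983B, and 7.57% and 8.8% in SK-Mel5. EIF2AK3, the endoplasmic reticulum stress kinase PERK, measured 7.08 and 7.15 with scrambled and 8.05 and 8.04 with shp300 in WM983B. In SK-Mel5 EIF2AK3 measured 5.74 and 5.83, then 5.00 and 4.97. It rose by 0.92 in WM983B (limma adjusted p = 0.000611) and fell by 0.80 in SK-Mel5 (limma adjusted p = 0.00169), and the 2 changes differed by 1.72 (SE 0.146, limma adjusted p = 0.00107). PPP1R15B, the constitutive adaptor through which eIF2 is dephosphorylated, measured 7.92 and 7.88 against 8.25 and 8.38 in WM983B and 8.21 and 8.20 against 6.89 and 6.86 in SK-Mel5. It fell by 1.33 in SK-Mel5 (limma adjusted p = 0.000198) and differed between the lines by 1.74 (SE 0.147, limma adjusted p = 0.00107). These 2 differences, the EIF2AK3 changes and the SK-Mel5 change of PPP1R15B passed in every setting. The PPP1R15B change of 0.42 in WM983B (limma adjusted p = 0.0236) missed the threshold without scrambled replicate 1 (0.0905) or 2 (0.112) or shp300 replicate 2 (0.110).

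PPP1R15A, the stress-induced counterpart GADD34, rose in WM983B from 6.85 and 6.72 to 7.76 and 8.28, by 1.24 (limma adjusted p = 0.00229). Its change of 0.71 in SK-Mel5 (limma adjusted p = 0.0344) missed the threshold without any one SK-Mel5 array (0.0609 to 0.189) and without either WM983B scrambled array (0.0616 each). EIF2AK4, the amino acid-sensing kinase GCN2, rose by 0.65 in WM983B (limma adjusted p = 0.00448) and by 0.63 in SK-Mel5 (limma adjusted p = 0.00742), in every setting. EIF2AK2, the RNA-sensing kinase PKR, rose by 0.52 in SK-Mel5 (limma adjusted p = 0.0124), though not without SK-Mel5 scrambled replicate 1 (0.0744) or 2 (0.0567) or shp300 replicate 2 (0.0599). EIF2B5, the catalytic subunit of the eIF2 exchange factor, fell by 0.49 in WM983B (limma adjusted p = 0.0187). It lost the call without WM983B scrambled replicate 1 (0.0579) or 2 (0.114) or shp300 replicate 1 (0.101). The 7 genes called in WM983B became 3, 3, 4 and 4 without scrambled replicates 1 and 2 and shp300 replicates 1 and 2. The 7 in SK-Mel5 became 4 without any one SK-Mel5 array, and 3 with the SK-Mel5 arrays alone. For the difference between lines, 2 genes were called with a higher change in WM983B and 1 with a lower one. The shares of all features were 5.0% and 4.46%.

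**Figure D3:**
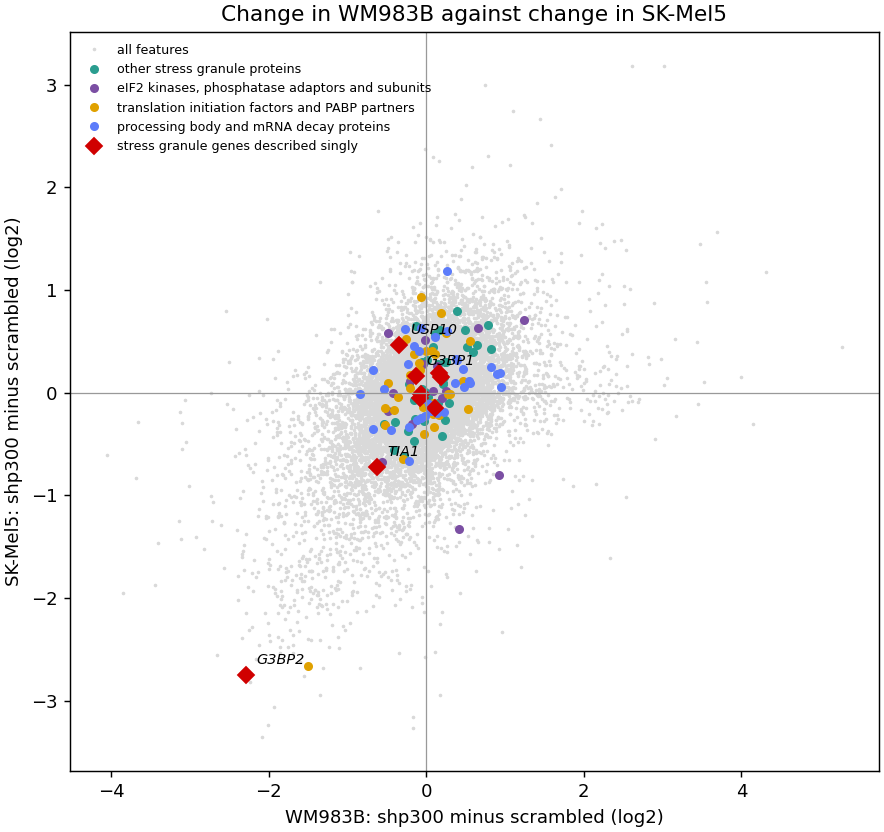
Change with shp300 in WM983B (x axis, log2) against the change in SK-Mel5 (y axis, log2) for all 23786 features (grey), the 4 gene lists (coloured points) and the 9 measured stress granule genes (red diamonds). G3BP2 lies at -2.29 and -2.75, away from every listed gene but 1 translation factor (EIF1AX, -1.50 and -2.67), and the 2 violet points to the lower right are EIF2AK3 and PPP1R15B.

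Translation initiation factors, whose stalled complexes fill the granules, and partners of poly(A)-binding protein were next, 30 of 32 of them measured. In WM983B 2 rose and 3 fell (median -0.03), against 10.9% and 11.6% of all features. In SK-Mel5 8 rose and 2 fell (median 0.02), against 7.57% and 8.8%. EIF4E2, a cap-binding protein that represses translation, rose in both lines, by 0.55 in WM983B from 8.70 and 8.75 to 9.30 and 9.25 (limma adjusted p = 0.00609, kept in every setting). Its rise of 0.50 in SK-Mel5 (limma adjusted p = 0.0125) was lost without SK-Mel5 scrambled replicate 1 (0.0623) or 2 (0.0696) or shp300 replicate 2 (0.0590). EIF4A2, an RNA helicase of the cap-binding complex, rose in SK-Mel5 from 8.47 and 8.58 to 9.24 and 9.36, by 0.77 (limma adjusted p = 0.00501, kept in every setting).

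Less stable calls in WM983B were those of EIF4E3 (0.53, limma adjusted p = 0.00896, 0.0529 and 0.0538 without scrambled replicate 1 and 2), EIF3M (-0.49, limma adjusted p = 0.0125, 0.0859 without scrambled replicate 1 and 0.0572 without shp300 replicate 2) and EIF4H (-0.53, limma adjusted p = 0.0134). EIF4H lost its call without WM983B scrambled replicate 2 (0.0948), shp300 replicate 1 (0.0623) or shp300 replicate 2 (0.0539). In SK-Mel5, EIF3A rose by 0.58 (limma adjusted p = 0.0123), but not without scrambled replicate 1 (0.0744) or 2 (0.0559) or shp300 replicate 2 (0.0601). EIF4B rose by 0.93 there (limma adjusted p = 0.0161), but not without scrambled replicate 1 (0.0983) or shp300 replicate 2 (0.0809). The SK-Mel5 count of 10 became 1, 3, 6 and 3 without its scrambled replicates 1 and 2 and shp300 replicates 1 and 2, and 6 without either WM983B scrambled array. In WM983B the count of 5 became 2 without scrambled replicate 1, scrambled replicate 2 or shp300 replicate 2. For the difference between lines, 5.0% of all features were called with a higher change in WM983B and 4.46% with a lower one. Of this list, EIF4E3 was called higher, and EIF3L and EIF3M lower. Each of these 3 calls was lost when any one of at least 7 of the 8 arrays was left out. EIF1AX, a factor of start-codon scanning with a near-identical copy that makes its feature uncertain, was singled out after its values were seen, as the only gene of the 4 lists near G3BP2. It measured 6.44 and 5.95 against 4.71 and 4.67 in WM983B, a change of -1.50 (SE 0.665, limma adjusted p = 0.163). In SK-Mel5 it measured 5.21 and 5.46 against 3.94 and 1.39, a change of -2.67 (SE 0.665, limma adjusted p = 0.0296). The shp300 arrays of SK-Mel5 were far apart for EIF1AX, and its call was lost without either SK-Mel5 scrambled array (0.104 and 0.130) or any one WM983B array (0.0549 to 0.0563).

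Of 35 measured processing body and decay proteins, 8 rose and 4 fell in WM983B (median 0.06), against 10.9% and 11.6% of all features. In SK-Mel5 5 rose and 1 fell (median 0.10), against 7.57% and 8.8%. AGO3, an Argonaute protein of microRNA silencing, rose in WM983B from 6.27 and 6.06 to 7.05 and 7.17, by 0.95 (limma adjusted p = 0.00143). XRN1, the main cytoplasmic 5′ to 3′ exonuclease, rose there from 7.16 on both arrays to 7.97 and 8.14, by 0.90 (limma adjusted p = 0.0018), and DCP1A, a decapping activator, by 0.82 (limma adjusted p = 0.00156). LSM4, of the ring that binds deadenylated messages, fell in WM983B from 9.58 and 9.54 to 8.73 and 8.70, by 0.85 (limma adjusted p = 0.00144). These 4 calls held in every setting.

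In SK-Mel5, TNRC6C, a GW182 protein that links Argonaute to deadenylation, rose from 4.97 and 4.98 to 6.30 and 6.01, by 1.18 (limma adjusted p = 0.00124). EIF4ENIF1, the 4E transporter of processing bodies, rose by 0.60 there (limma adjusted p = 0.00551), and both of these calls held in every setting. DCP2, the decapping enzyme, fell by 0.66 in SK-Mel5 (limma adjusted p = 0.00993, 0.0665 without SK-Mel5 scrambled replicate 2). LSM14B rose by 0.46 in SK-Mel5 (limma adjusted p = 0.0195, but 0.0641 to 0.0992 without any one SK-Mel5 array). The WM983B count of 12 became 7, 5 and 5 without scrambled replicate 1, scrambled replicate 2 and shp300 replicate 2. The SK-Mel5 count of 6 became 3 without scrambled replicate 1, scrambled replicate 2 or shp300 replicate 1. For the difference between lines, 7 genes were called, 2 with a higher change in WM983B and 5 with a lower one. The shares of all features were 5.0% and 4.46%. The count of 7 became 0 to 3 when any one array was left out.

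No measured gene beside G3BP2 on chromosome 4 showed a fall like its own, but several were too dim to show one. The 5 nearest measured protein-coding genes on each side were compared. USO1, which faces G3BP2 across the 139 bases shown above, measured 8.61 and 8.45 with scrambled and 8.83 and 8.88 with shp300 in WM983B. In SK-Mel5 USO1 measured 8.00 and 8.08 against 8.05 and 8.10. Its shp300 arrays were above its scrambled arrays in WM983B and overlapped them in SK-Mel5, with changes of 0.32 (SE 0.110, limma adjusted p = 0.0733) and 0.04 (limma adjusted p = 0.888). CDKL2, a kinase gene that lies 12257 bases from G3BP2 on the other side, changed by 0.23 (limma adjusted p = 0.545) and -0.23 (limma adjusted p = 0.578). Of the 10 neighbours, 1 rose and 0 fell in WM983B, where 10.9% and 11.6% of all features did. In SK-Mel5 0 rose and 0 fell, against 7.57% and 8.8% of all features. At an unadjusted limma p under 0.05 the counts were 3 and 0 in WM983B and 1 and 0 in SK-Mel5. The share of all features at that unadjusted p was not counted, so nothing is read from these unadjusted counts.

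PARM1, the neighbour that rose in WM983B, went from 3.54 and 3.20 to 4.05 and 4.04, a change of 0.67 (limma adjusted p = 0.0217). Its call was lost without WM983B scrambled replicate 2 (0.141), shp300 replicate 1 (0.0907) or shp300 replicate 2 (0.0870). The other neighbours without a call ranged from RCHY1, at -0.24 in WM983B and -0.30 in SK-Mel5, to SDAD1, at -0.04 and 0.32. THAP6 measured -0.20 and -0.09, NAAA 0.32 and 0.19, ODAPH 0.15 and 0.12, PPEF2 -0.21 and 0.12, and CXCL9 -0.05 and 0.20. None of the 10 neighbours was called for the difference between lines by limma, where 5.0% and 4.46% of all features were, higher and lower in WM983B. At an unadjusted limma p under 0.05 the neighbours numbered 0 and 1, and the share of all features there was not counted.

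**Figure D4:**
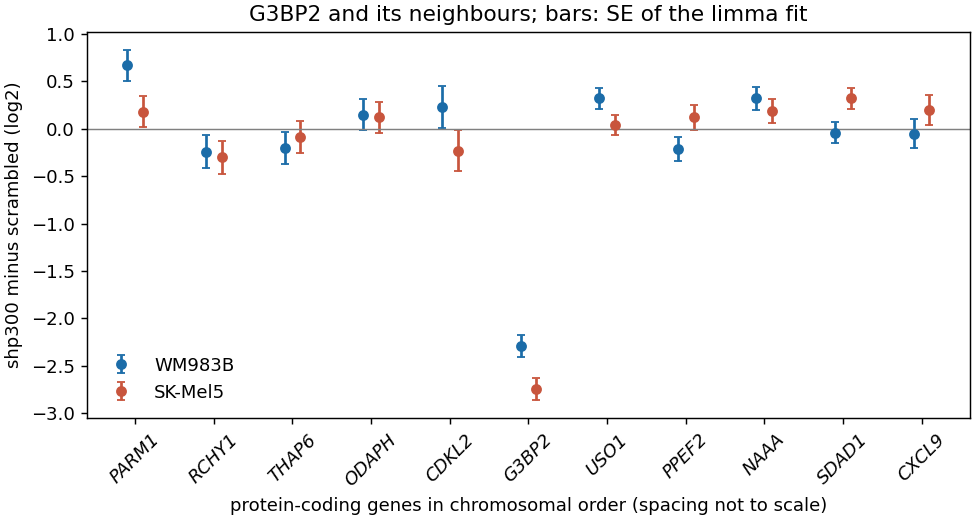
Change with shp300 (y axis, shp300 minus scrambled, log2) of G3BP2 and the 5 nearest measured protein-coding genes on either side (x axis, in chromosomal order and not to scale) in WM983B and SK-Mel5. Points are differences of means of 2 arrays and bars the SE of the limma fit. G3BP2 lies at -2.29 and -2.75, and its 10 neighbours lie between -0.30 and 0.67.

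The genes whose values followed G3BP2 most closely were ranked by the root mean square difference over the 8 arrays, with each gene set to its scrambled mean in each line. They were ranked on the changes that chose G3BP2 and are a description without a test. DEPDC1B, a cell-cycle gene of adhesion turnover, was nearest, with a difference of 0.11 and r = 0.997 over the 8 arrays. It measured 7.76 and 7.60 against 5.48 and 5.40 in WM983B and 5.03 and 5.05 against 2.29 and 2.15 in SK-Mel5. Its changes were -2.24 and -2.82. PPIA, which encodes cyclophilin A and has many near-identical retrocopies that make its feature uncertain, followed at 0.18 (changes of -2.16 and -2.60, r = 0.992), with PBK, a mitotic kinase, also at 0.18 (-2.12 and -2.46, r = 0.998).

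DTL, a substrate receptor of the CUL4 ubiquitin ligase that acts in S phase, differed from G3BP2 by 0.21 (-2.34 and -2.39, r = 0.994). TRIM63, a ubiquitin ligase best known from muscle, differed by 0.25 (-2.25 and -2.32, r = 0.992). All 8 points of such a correlation share 2 lines and 2 shRNAs, so r mainly restates a common drop. The other members were far from this pattern. TIA1 was nearest at 1.31, rank 1100 among the features, and the other 7 lay between 1.74 and 1.92.

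**Figure D5:**
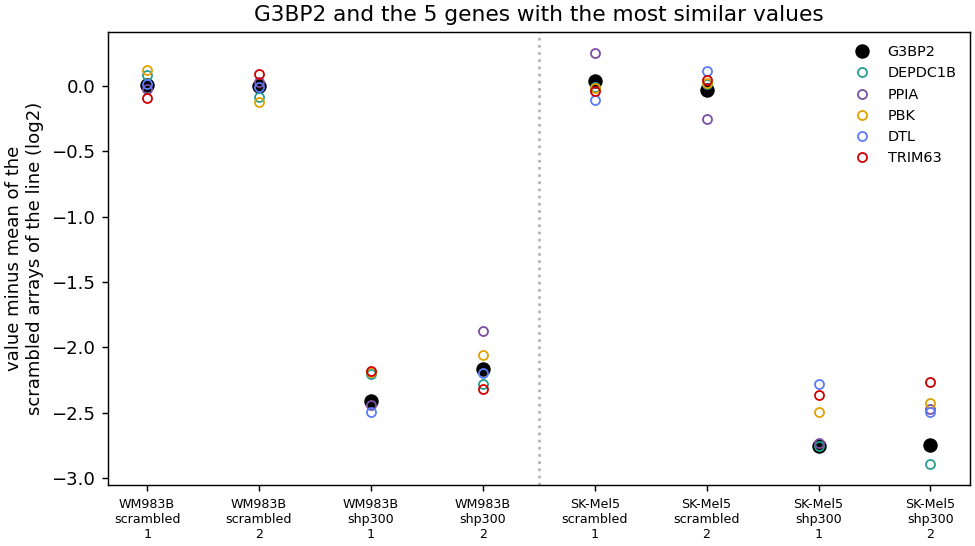
Log2 value minus the scrambled mean of the same line (y axis) of G3BP2 (filled black) and the 5 genes nearest to it (open points) on each of the 8 arrays (x axis). All 6 genes lie near 0 on the scrambled arrays and between -1.872 and -2.894 on the shp300 arrays.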

How the data were processed

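The RNA of 4 groups was hybridised to 8 Affymetrix Human Gene 2.0 ST arrays. The authors deposited log2 values, made by RMA with affy 1.36.1 in R 2.15.1, per the submitters' processing notes. Which probes make up a feature is not stated in the labels or files used. The distribution differed between the lines, which were apparently normalized separately. RMA pulls low signals together, so changes of dim genes may be understated.

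Each feature number was an Entrez number in 22458 of 22458 platform rows. A further 635 features were named by it through RefSeq, 693 stayed unnamed, and 0 deposited columns were unused. All arrays entered 1 model of 4 groups with limma 3.58.1 (R 4.3.3), unfiltered. Tests were two-sided, with Benjamini-Hochberg adjustment over 23786 features per comparison and calls at an adjusted p under 0.05. The fit was tested on simulated data. "Rose" and "fell" refer to calls. The members, lists, rules and alternatives were chosen with earlier results of these data known. Named genes were the 10 members, EP300, the up to 4 called genes with the smallest p per list and line (up to 2 for the difference between lines), 5 neighbours on each side and the 5 genes most like G3BP2. EIF1AX was added after its values were seen. A gene that the rule names is not reported here. Alternatives were quantile normalization, cyclic loess, median centring, leaving out dim features, another variance model, the arrays of 1 line alone, replicate number as a block, and each array left out. Protein sequences were not used here.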

Additional observations from a re-analysis of the deposited data

Results flagged for a closer look

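These results were picked out where the arrays of a member lay in opposite order in the 2 lines, or where the difference of the change was called. G3BP1 and USP10 were on opposite sides of their scrambled arrays in the 2 lines, with differences (WM983B minus SK-Mel5) of -0.30 and -0.82. Both genes were chosen by these changes, so the differences are given with no p-value and were not tested on independent values. The fit of all features calls the USP10 difference, from which nothing is read. It does not call the G3BP1 difference (SE 0.165, 95% interval -0.68 to 0.08), and the G3BP1 groups were apart by narrow gaps.

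In the limma test of the difference itself, the change was higher in WM983B for PPP1R15B by 1.74 and EIF2AK3 by 1.72 (limma adjusted p = 0.00107 each), and both passed in every setting. It was also higher for EP300 by 0.95 (limma adjusted p = 0.0357), AGO3 by 0.89 (limma adjusted p = 0.0219), XRN1 by 0.72 (limma adjusted p = 0.0451) and EIF4E3 by 0.69 (limma adjusted p = 0.0286). The change was lower in WM983B for TNRC6C (-0.92, limma adjusted p = 0.0285), LSM4 (-0.83, limma adjusted p = 0.0192), LARP1 (-0.78, limma adjusted p = 0.0289), EIF3L (-0.77, limma adjusted p = 0.0236), LSM14B (-0.61, limma adjusted p = 0.0392) and EIF3M (-0.58, limma adjusted p = 0.0492).

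Apart from EIF2AK3 and PPP1R15B, each of these 10 tested differences lost its call without at least 5 of the 8 arrays in turn, at adjusted p of 0.0503 to 0.155. The EP300 RNA differed between the lines in the same comparison, and its part in these results was not tested.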

How the results depend on the processing

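No called change turned its direction under any of these alternatives. The 15 alternatives gave the G3BP2 change as -2.41 to -2.16 in WM983B and -2.79 to -2.63 in SK-Mel5, the last with quantile normalization of all arrays. Leaving out 1 array gave -2.41 to -2.16 and -2.79 to -2.72, and for the difference between lines 0.34 to 0.59 (0.32 with quantile normalization). Called members numbered 1 to 2 in WM983B and 1 to 3 in SK-Mel5 with 1 array left out. They numbered 3 in WM983B (USP10 added) with dim features left out or a trended, robust variance model. That model gave 4 in SK-Mel5 (UBAP2L added) and also called the G3BP2 difference between lines. The shares of all features called under these alternatives were not counted, so nothing is read from these numbers. No scaling moved the median of all features by as much as 0.1. Of 1833 values of tested genes, 1623 stayed on their side of the threshold, 176 lost a call and 34 gained one.

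Counts of called genes moved most. How many of all features were called under each alternative was not counted. Counts under the alternatives, here and in the other sections, are therefore not read as results about the lists. With 1 array left out, other stress granule proteins numbered 3 to 9 in WM983B, 2 to 12 in SK-Mel5 and 0 to 1 for the difference. The eIF2 list numbered 3 to 7, 4 to 7 and 3. Translation initiation numbered 2 to 6, 1 to 7 and 0 to 3. Processing bodies numbered 5 to 13, 3 to 6 and 0 to 3. Neighbours numbered 0 to 1 in WM983B. With dim features left out, SK-Mel5 gave 20 other stress granule proteins, 11 processing body proteins and 1 neighbour. WM983B then gave 8 translation factors, and the difference 2 other stress granule proteins and 6 translation factors. A trended, robust variance model gave 22, 11 and 1 in SK-Mel5, 12 translation factors and 2 neighbours in WM983B, and 4 other stress granule proteins and 12 translation factors for the difference. The 4 arrays of SK-Mel5 alone gave 4 other stress granule proteins, 3 eIF2 genes and 2 translation factors. With the arrays of 1 line alone, 12 called changes of named genes missed the threshold, at adjusted p of 0.0515 to 0.163. The cause was not tested, except that leaving out arrays or a line leaves fewer arrays.

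Deviations of same-numbered arrays correlated at 0.00303 in WM983B and 0.0277 in SK-Mel5, with 2 pairs each. These values give no sign that the replicate numbers pair the arrays, but so few arrays cannot exclude it. A replicate block gave 8 other stress granule proteins and 6 translation factors in SK-Mel5. For the difference it gave 0, 1 and 1 for other stress granule proteins, translation factors and processing bodies. It ended 5 calls within a line, STAU1 (adjusted p 0.0677) and PPP1R15B (0.0596) in WM983B and IGF2BP1 (0.0975), PPP1R15A (0.061) and LSM14B (0.0536) in SK-Mel5. It also ended the call of the 10 tested differences other than EIF2AK3 and PPP1R15B, at adjusted p of 0.0518 to 0.105.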
